A study of Rattus norvegicus with 14 samples.

Results

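The windows described here are stretches of 1 kb of the rat genome whose DNA methylation differed widely among the low-capacity samples and hardly among the high-capacity samples. They were chosen from the measured levels: a sample SD of 12 percentage points or more over the LCR samples and of 5 points or less over the HCR samples. Only windows on chromosomes 1 to 20 with a value in every sample were considered, and 380 of these 131799 windows met both limits (0.288%), of 194367 windows in the whole series. The levels came from reduced representation bisulfite sequencing (RRBS), which cuts DNA at CCGG sites and reads methylation mainly in CpG-rich fragments. The samples were left soleus muscles, a slow, postural leg muscle, from female rats 23 to 24 months of age. HCR (6 samples) and LCR (8 samples) are rat lines of generation 44, bred for high and low running capacity from genetically heterogeneous N:NIH stock, fed standard chow and untreated. Nothing in the labels states that each sample is a different rat, so spreads between samples could be partly technical.

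In mammals methylation is found mostly on cytosines of CpG dinucleotides, where it is copied onto the new strand after DNA replication. CpG-rich promoters are usually unmethylated, while gene bodies and the rest of the genome are mostly methylated. A level between these extremes is a mixture, of cells, of both parental copies or of CpGs within one window, and it may differ between individuals through DNA sequence, cell makeup or age. Muscle is a mixed tissue in which nuclei of fibres stand beside those of vessels, connective tissue and satellite cells, and the share of each cell type was not measured here. A window averages all its covered cytosines, so it cannot show which CpG differs.

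The choice fixed the spreads, so they are given as a description. LCR SDs of the 380 windows ran from 12.01 to 24.3 points with a median of 13.5, and quartiles of 12.6 and 15.3; HCR SDs ran from 0 to 5.00 with a median of 3.97. Over all 131799 windows the medians were close to each other, at 4.33 points in LCR and 4.39 in HCR. An LCR SD of 12 points or more was found in 4682 windows, and the 380 were 8.12% of them. The median HCR SD over those 4682 windows was 10.2 points. Thus most windows that were variable in LCR had a spread in HCR above 5 points. Windows at the edges of the choice differed little from those left out. The pair just inside the LCR limit, chr3:1078001-1079000 and chr4:154347001-154348000, had LCR SDs of 12.01 and 12.02, and the pair just outside, chr3:34202001-34203000 and chr11:29880001-29881000, had 11.996 and 11.99. At the HCR limit, chr1:202213001-202214000 and chr6:117797001-117798000 stood just inside at 4.997 and 4.995 points. Just outside were chr16:75971001-75972000 and chr10:67516001-67517000, at 5.006 and 5.007.

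**Figure D1:**
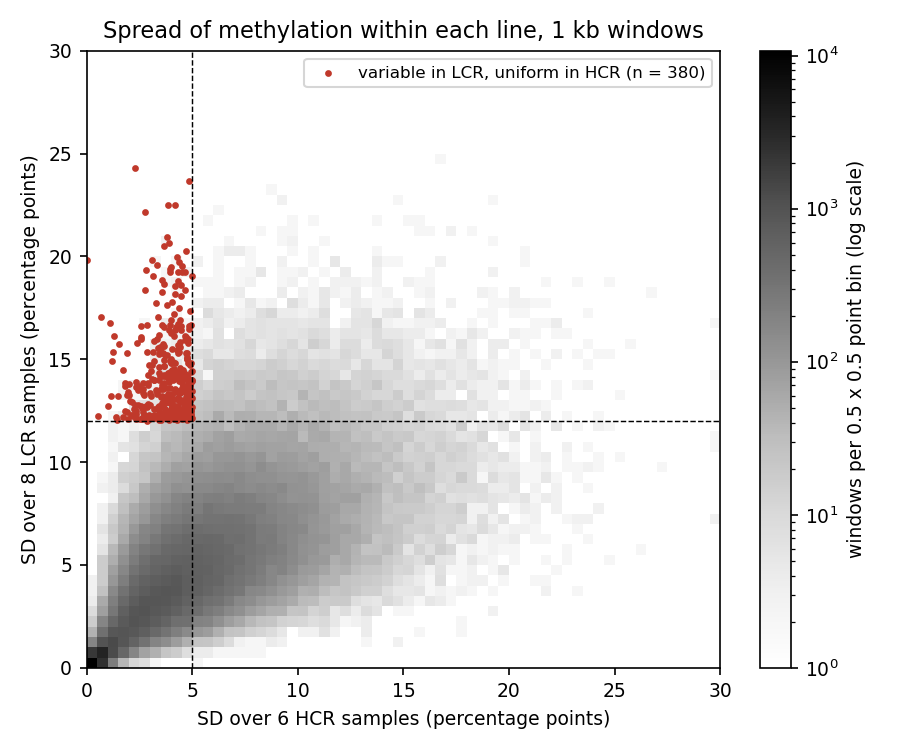
SD of the methylation level over the 6 HCR samples (x axis) and the 8 LCR samples (y axis), in percentage points, for all windows of chromosomes 1 to 20 with values in every sample. Grey shows windows per bin on a log scale, red points are the 380 chosen windows, and dashed lines are the limits of 5 and 12 points; the red points run on without a gap into the grey ones at both limits.

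The count for the labelled lines was lower than for most other groupings of the same samples. The 14 samples were divided into 6 and 8 in all 3003 ways, the same limits were applied, and the count had a median of 460 windows, quartiles of 361.5 and 578 and a range of 140 to 1178. The labelled lines gave 380, below that median, and 2122 divisions (70.7%) gave as many or more (exact permutation test, one-sided for a higher count, p = 0.707; two-sided p = 0.619). A high spread in LCR beside a low one in HCR was thus not more frequent than the same pattern in other groupings. Every other division puts samples of both lines in the same group, so differences between the lines enter its SDs. The median over the divisions is therefore not a reference for spread within lines alone. The opposite class, with an SD of 12 or more in HCR and 5 or less in LCR, held 636 windows. The difference of 256 between the counts did not pass the test over the same divisions (exact permutation test, two-sided, p = 0.254). This comparison was chosen after the counts were seen. Its test takes the distance from the median difference over the divisions, not from equal counts. Over the divisions the median count was 460 for the class of the 380 and 368 for the opposite class. Without LCR replicate 7 the counts were 323 and 856, and their difference passed 0.05 (exact permutation p = 0.042). It also did with only the LCR samples numbered 1 to 6, where the counts were 337 and 1057 (exact permutation p = 0.0433). Both of these leave out replicate 7, and their p-values were not corrected for the number of settings tried. None of the other 8 settings or the other 13 omissions of 1 sample passed (exact permutation p = 0.0882 to 0.611). Without HCR replicate 3 the difference was -8, where the median counts over the divisions were 598 and 406.

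**Figure D2:**
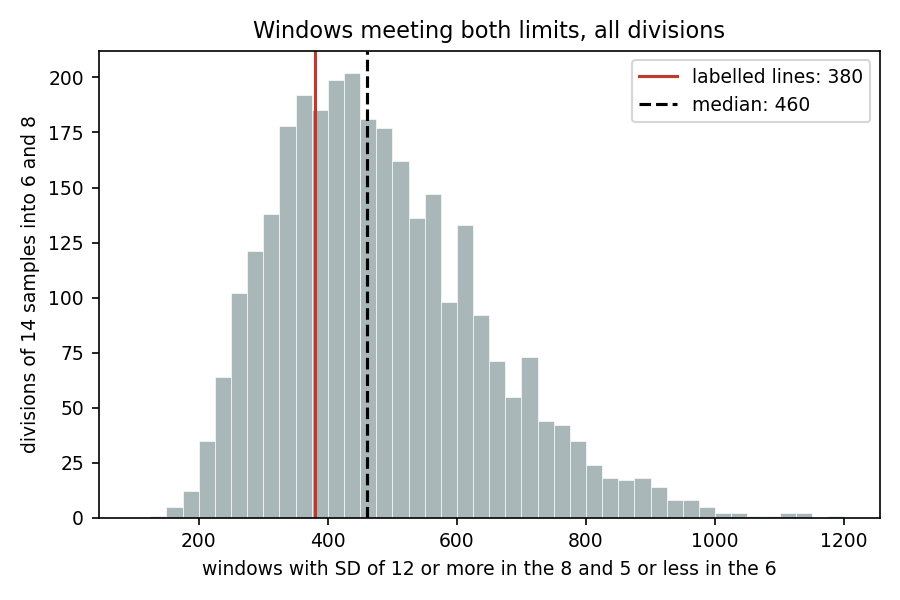
Number of windows with an SD of 12 points or more in 8 samples and 5 points or less in the other 6 (x axis) against the number of divisions of the 14 samples that gave it (y axis). The red line marks the labelled lines at 380 windows and the dashed line the median of 460.

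The spread took several forms, shown first in windows of low HCR level. The window with the largest, chr4:158511001-158512000, was unmethylated in nearly all HCR samples and in most LCR samples. HCR replicate 2 had 5.56% and the other HCR samples 0%. LCR replicates 1, 2 and 4 had 39.7, 57.6 and 42.6%, LCR replicates 3 and 5 had 2.20 and 1.87%, and LCR replicates 6, 7 and 8 had 0%. Only 3 LCR samples were thus above 10% in this window. At chr14:68368001-68369000 more LCR samples were methylated. HCR samples had 7.25 to 17.8% (median 8.78%). LCR replicates 1, 2, 3, 6 and 8 had 57.3, 62.04, 53.7, 61.9 and 57.0%, while LCR replicates 4, 5 and 7 had 10.8, 19.9 and 15.8%. In this window 5 LCR samples were methylated at intermediate level and 3 lay near the HCR samples.

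Among highly methylated windows, some LCR samples were at the HCR level and others were lower. At chr6:132330001-132331000 HCR samples ran from 65.8 to 76.9% (median 69.98%). LCR replicates 1, 2, 4 and 5 had 72.8, 75.6, 75.9 and 77.9%, and LCR replicates 3, 6, 7 and 8 had 39.3, 25, 44.0 and 31.0%. The LCR samples thus formed a set at the HCR level and a set below it. At chr3:14607001-14608000, with HCR samples at 64.3 to 71.8% (median 67.9%), LCR replicates 3, 6 and 8 were again low, at 23.4, 23.3 and 29.4%. There LCR replicate 7 had 71.5%, within the HCR range, and LCR replicate 5 stood between at 44.7%. At chr16:5503001-5504000 HCR samples had 69.6 to 79.6% (median 72.4%), and the low LCR samples were replicates 1, 2, 5 and 8 at 37.8, 47.1, 40.7 and 20.8%. LCR replicate 8 was thus low in all 3 windows and replicates 3 and 6 in the first pair, while the other low samples differed between windows.

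Windows of intermediate HCR level showed LCR samples on both sides. At chr8:19498001-19499000 HCR samples had 37.1 to 50% (median 47.3%), while LCR samples ran from 9.21% in replicate 5 to 65.6% in replicate 2 (median 25.2%). At chr4:62766001-62767000 HCR samples had 20.9 to 31.5% (median 24.2%). LCR replicates 6 and 8 were lower, at 10 and 12.5%, and the other LCR samples were higher, at 37.5 to 70.4%. In these windows the HCR samples lay inside the span of the LCR samples. At chr11:82574001-82575000 a single low sample made most of the spread. LCR replicate 6 had 2.47% there, the other LCR samples 37.5 to 67.2%, and the HCR samples 46.4 to 56.7% (median 53.9%). At chr11:65282001-65283000 a single high sample did, with LCR replicate 1 at 76.4%, the other LCR samples at 18.5 to 37.5%, and the HCR samples at 27.1 to 37.4% (median 36.4%). At chr9:17315001-17316000 HCR samples had 0 to 10% (median 0.917%), and LCR samples ran from 0% in replicates 6 and 8 to 51.9% in replicate 2. No HCR sample had methylation in chr19:37598001-37599000 (named after its values were seen), where all 6 were listed at 0%. LCR replicates 1, 2 and 5 had 25.9, 35.3 and 51.6% in that window, and the other LCR samples 0 to 4.88%.

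**Figure D3:**
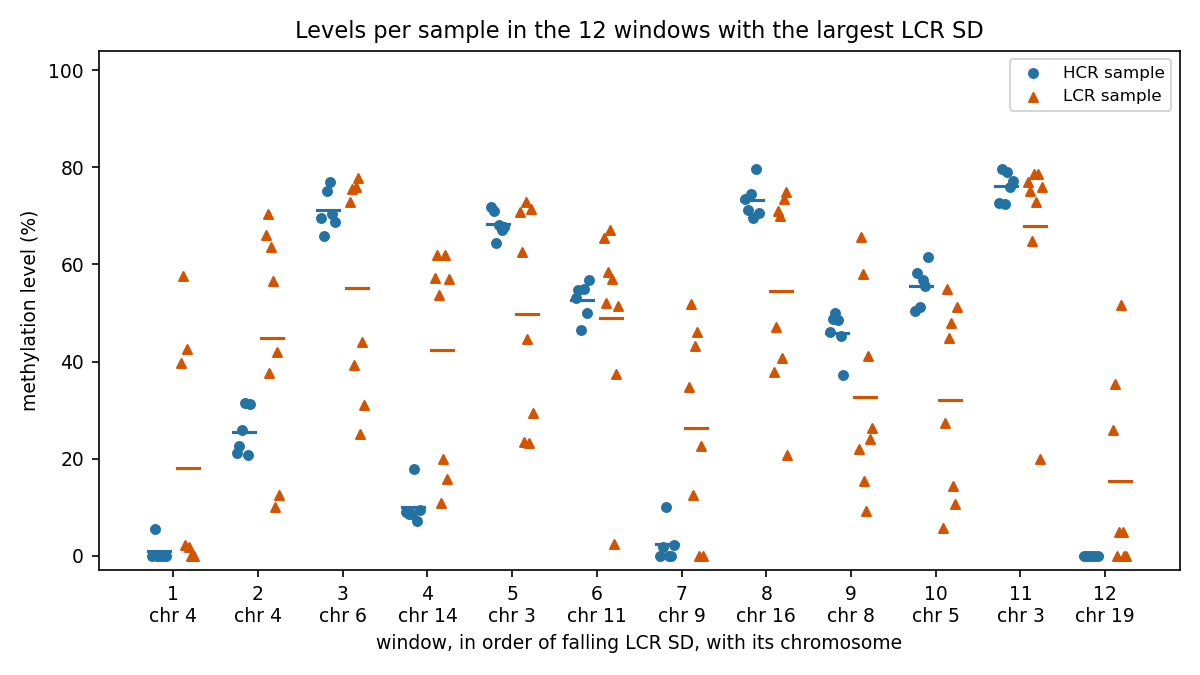
Methylation level in percent (y axis) of each HCR sample (blue circles) and LCR sample (orange triangles) in the 12 windows with the largest LCR SD (x axis, in order of falling LCR SD, with the chromosome); horizontal bars are line means. HCR samples stay within a narrow band in each window, while LCR samples are drawn out, in some windows as separate sets (windows 1, 3 and 4) and in others by a single sample (windows 6 and 11).

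The 380 windows were mostly of middle to high level. By mean HCR level, 22 were under 10%, 46 at 10 to 30%, 86 at 30 to 50%, 154 at 50 to 70% and 72 at 70% or more. In percent these classes made up 5.79, 12.1, 22.6, 40.5 and 18.9 of the windows, against 26.7, 17.9, 19.8, 24.2 and 11.3 of all 131799. The median over the mean HCR levels was 55.1%, and that of all windows was 36.0%. Windows with an SD of 12 or more in both lines (1652) were most often at 30 to 50%, with 52.7% of them in that class. The 636 windows variable in HCR and uniform in LCR had 0.629, 23.0, 33.6, 35.2 and 7.55% in these classes, and a median of 46.4%. They too were few under 10% and most often at 50 to 70%. An SD in percentage points is bounded near 0 and 100%, so a limit on it favours levels by construction, and these shares are a description.

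The direction in which LCR samples departed varied with the HCR level. An LCR sample stood more than 10 points above the highest HCR sample in 47.2% of the values of windows with a mean HCR level under 10%. That share fell across the level classes to 25.8, 13.2, 5.36 and 2.26%. The share more than 10 points below the lowest HCR sample rose from 0% through 5.16, 17.2 and 23.0 to 29.5% in windows of 70% or more. In windows with a mean HCR level under 10% the scale leaves no room for a departure of this size downward. In windows of 70% or more it leaves less room upward than downward, so these shares are a description. At 30 to 50% departures were somewhat more frequent below than above. Taking all 3040 LCR values together, 34.8% lay within the range of the HCR samples, 19.4% more than 10 points below it and 11.4% more than 10 points above it. LCR samples departed by more than 10 points only downward in 206 windows, only upward in 89, and both ways in 83, with neither in 2. With the LCR range of each window cut into 3 equal parts, the mean HCR level lay in the uppermost part in 182 windows, in the middle part in 103 and in the lowest part in 66. It was above the highest LCR sample in 19 windows and below the lowest in 10. Without LCR replicate 7, the 323 windows that met the limits had 19.7% of LCR values below and 13.1% above in the same sense.

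**Figure D4:**
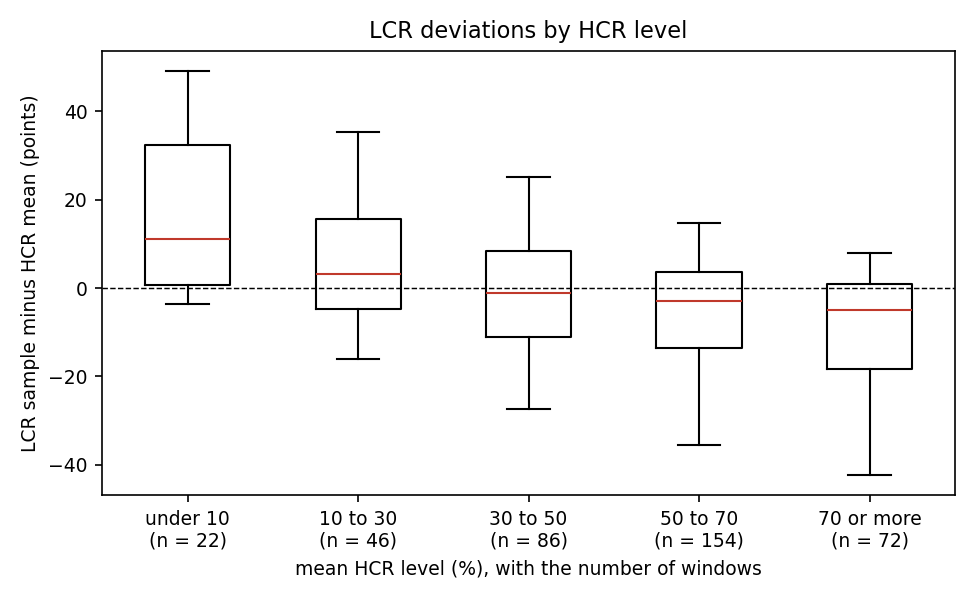
Level of each LCR sample minus the mean HCR level of the window, in percentage points (y axis), for 5 classes of the mean HCR level (x axis, with the number of windows). Boxes are quartiles with the median in red, and whiskers reach the 5th and 95th percentiles; the boxes shift from above 0 at low HCR levels to below 0 at high ones.

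Most windows met the LCR limit only with their most distant LCR sample. Without the LCR sample farthest from the LCR median, 319 of the 380 (83.9%) had an SD under 12 points over the other 7, and 61 kept an SD of 12 or more. In 35 windows (9.21%) the other 7 had an SD of 5 points or less, as uniform as the HCR samples. In 31 of these 35 the sample apart was below the others and in 4 above. The mean HCR level was within 5 points of the LCR median in 28 of the 35, so that in those windows 7 LCR samples and the HCR samples shared a level. In 24 windows (6.32%) the LCR samples fell into separate sets of 2 or more, with a gap of at least 0.5 of the LCR range between them. The set means differed by a median of 27.9 points there. The mean HCR level was within 10 points of the upper set in 10 of the 24, of the lower set in 10 and of neither in 4. The other 321 windows (84.5%) were graded. Of the 4302 other windows with an LCR SD of 12 or more, 2.53% had 1 sample apart, 4.23% had separate sets and 74.6% fell under 12 points without their farthest sample. These shares carry no test, because the limit on HCR chose the windows. Leaving out the farthest sample tends to lower an SD, and the median LCR SD of the 380 was 13.5 points, near the limit of 12. A fall under 12 points was thus favoured by the choice.

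LCR replicate 7, the library with the most windows without a value, was most often the sample far from the rest. It was the farthest LCR sample in 112 of the 380 windows, the lowest in 114 and the highest in 47. In 20 of the 35 windows with 1 sample apart it was that sample. The 3 such windows with the largest spread were all of this kind. At chr3:158662001-158663000 LCR replicate 7 had 20%, the other LCR samples 64.8 to 78.6% and the HCR samples 72.4 to 79.7% (median 76.7%). At chr13:3014001-3015000 it had 24.2%, the other LCR samples 67.3 to 74.4% and the HCR samples 66.5 to 76.4% (median 71.1%). At chr1:181603001-181604000 it had 25%, the other LCR samples 66.7 to 73.3% and the HCR samples 74.03 to 77.7% (median 75%). Every other sample of both lines was at 64.8% or more in these 3 windows.

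The order of the LCR libraries by how often they were farthest was the order of their windows without a value. LCR replicates 4, 1 and 3 lacked a value in 2705, 2823 and 3404 windows of the series and were farthest in 17, 22 and 30 of the 380. LCR replicates 5, 8 and 6 lacked 8296, 12365 and 12494 and were farthest in 31, 45 and 48. LCR replicates 2 and 7 lacked 13653 and 23521 and were farthest in 75 and 112. The part of library coverage in the spread was not tested, and read depth per window is unknown. HCR libraries lacked 4806 to 17161 windows. Among the 4302 other windows with an LCR SD of 12 or more, replicate 7 was farthest in 26.8% and replicate 4 in 5.28%, beside 29.5 and 4.47% in the 380. Mean levels over the 380 windows ran from 50.5 to 51.2% in the HCR samples. In LCR they ran from 41.3% in replicate 7 to 53.1% in replicate 1. The limits on the SDs favour a narrow span in HCR and a wide one in LCR, so these spans are a description. Over all 131799 windows the means ran from 33.8 to 36.7% in HCR. In LCR they ran there from 33.0% in replicate 7 to 36.2% in replicate 1.

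**Figure D5:**
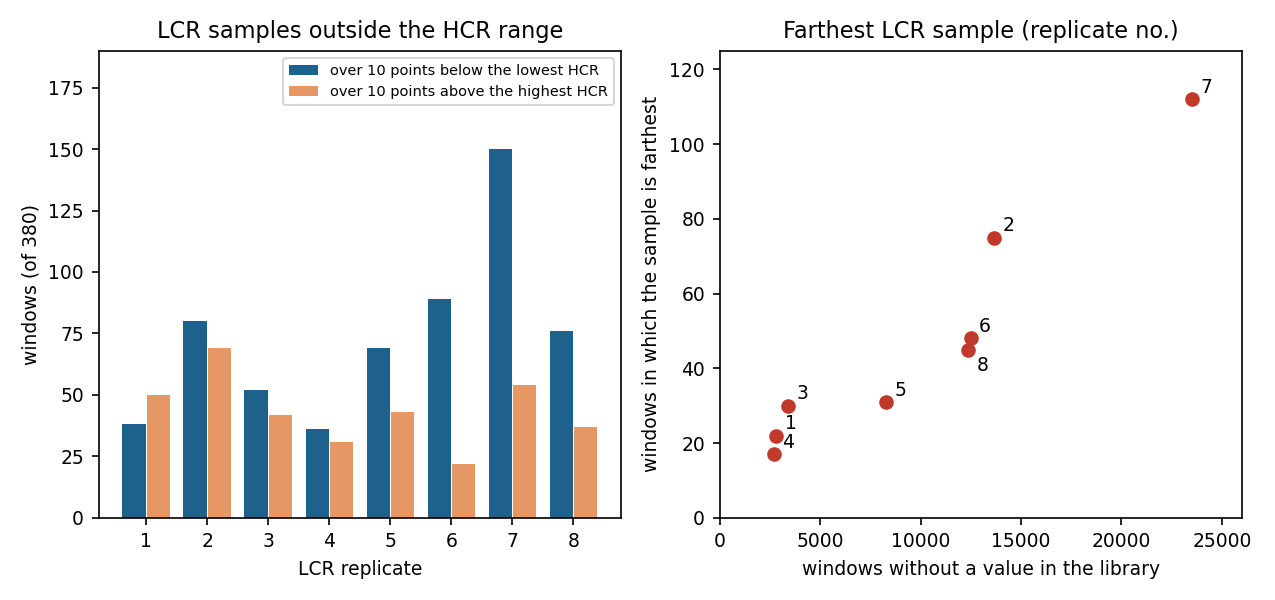
Left, number of the 380 windows (y axis) in which each LCR replicate (x axis) was more than 10 points below the lowest (blue) or above the highest (orange) HCR sample. Right, for each LCR replicate, the windows of the series without a value (x axis) and the number of the 380 windows in which it was farthest from the LCR median (y axis); replicate 7 is at the top right with 23521 and 112, and replicate 4 at the lower left with 2705 and 17.

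Some LCR samples were closer to each other than others over the 380 windows. LCR replicates 3 and 4 were closest, with a mean absolute difference of 11.6 points, and replicates 2 and 7 farthest, with 23.4 points. The same pairs were closest and farthest in windows variable in both lines, at 13.2 and 21.9 points. Over all windows they differed by 4.66 and 6.59 points, with replicates 2 and 7 again farthest and replicates 1 and 4 closest at 4.64. The 2 extremes were thus not particular to the 380. Replicates 6 and 7 were both more than 10 points below the LCR median in 33 windows, and replicates 7 and 8 in 31. Leaving out each LCR sample showed which windows depended on it. Without replicate 7, 136 of the 380 windows fell under the LCR limit and 244 stayed; without replicate 2, 81 fell, and without any other LCR sample 26 to 62 fell. The limits applied to the remaining 7 samples also let in other windows. Without replicate 7 they gave 323 windows, of which 244 were among the 380. In the 61 windows that kept 12 points without their farthest sample, replicates 2 and 6 were farthest in 13 each, replicate 7 in 9, and the others in 1 to 8. These 61 were chosen by the same levels, and windows that rest on 1 far sample are left out of them by construction. A member outside the 12 plotted windows shows the pattern at a lower spread: at chr5:158813001-158814000 (named after its values were seen) HCR samples had 41.2 to 49.6%, while LCR replicates 1, 4 and 6 had 66.0, 57.3 and 62.8% and replicate 7 had 15.7%.

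A difference between the line means was tested across all windows. Of the 380, 12 passed limma with a Benjamini-Hochberg adjusted p under 0.05. Limma compares the lines on the logit (log odds) of the level. It uses a variance per window, common to both lines and drawn toward a trend over all windows. The choice made the spreads of the lines unequal in the 380, in percentage points, and the fit does not allow for this. The adjusted p-values of these windows are therefore approximate. The background was 0.572% of all windows of chromosomes 1 to 20, and 0.569% of all 135802 windows tested. The lines did not overlap in 11, beside 0.712% of all. The choice used the same samples, so nothing is read from these shares. Of the 12, which are named because they passed and not by the rule for windows, 8 were lower and 4 higher in HCR. The balance was the other way among all 773 windows called of the 135802, with 223 lower and 550 higher in HCR. The median difference over the 380 windows was 4.02 points toward HCR, and 248 of them (65.3%) were higher in HCR, beside a median of 0.503 points and 64.8% over all windows.

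In 4 of the 12, HCR was almost free of methylation while LCR was at intermediate level. At chr2:4051001-4052000 HCR samples had 0.677 to 3.53% (median 1.44%) and LCR samples 27.9 to 59.6% (median 36.8%), a difference of -37.8 points (log2 logit difference -4.67, SE 0.35, limma adjusted p = 2.28e-05). At chr2:25041001-25042000 HCR replicate 6 had 1.36% and the other HCR samples 0%. LCR replicate 4 had 9.63% there and the other LCR samples 30.1 to 48.6% (difference -35.8 points, limma adjusted p = 2.28e-05). Both windows separated the lines in every sample. At chr2:86533001-86534000 HCR samples had 0 to 2.88% (median 0%), LCR replicate 6 had 7.41% and the other LCR samples 25 to 50% (limma adjusted p = 0.000123). At chr3:147559001-147560000 HCR samples had 0 to 2.37% (median 0.212%), LCR replicate 6 had 4.62% and the other LCR samples 29.2 to 50% (limma adjusted p = 0.00052). A single low LCR sample thus stood near HCR in 3 of these 4 windows, without overlapping it.

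A single LCR sample at the HCR level was also seen at other called windows. At chr7:29095001-29096000 LCR replicate 4 had 32.03%, inside the HCR range of 30.8 to 39.3%, and the other LCR samples had 59.5 to 70.3% (limma adjusted p = 0.0184). At chr10:79351001-79352000 it had 13.5%, within the HCR range of 5.83 to 15.8%, against 40.7 to 65.7% in the other LCR samples (limma adjusted p = 0.005). At chr17:20582001-20583000 LCR replicate 3 had 7.26%, within the HCR range of 2.47 to 11.9%, and the others had 27.4 to 55.5% (limma adjusted p = 0.0325). At chr2:90959001-90960000 LCR replicate 6 had 39.3%, within the HCR range of 33.3 to 43.9%, and the others had 58.3 to 79.5% (limma adjusted p = 0.0313). In each of these windows 7 LCR samples lay apart from HCR and 1 did not.

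The 4 called windows higher in HCR had HCR levels of 54.9 to 74.3%. At chr13:94912001-94913000 HCR samples had 65.9 to 76.3% (median 71.7%), LCR replicate 1 had 60.2% and the other LCR samples 17.4 to 34.8% (limma adjusted p = 0.00182). At chr7:130195001-130196000 5 HCR samples were at 75% and HCR replicate 5 at 70.6%, while LCR samples ran from 20.4 to 55.8% (median 30.4%; limma adjusted p = 0.00237). At chr4:86658001-86659000 HCR samples had 53.9 to 57.9% (median 54.3%). LCR replicates 4 and 5 had 43.3 and 44.4% there, and the other LCR samples 7.88 to 20.3% (limma adjusted p = 0.0223). At chr11:29315001-29316000 HCR samples had 59.5 to 70.3% and LCR samples 21.2 to 63.5% (median 37.5%; limma adjusted p = 0.0404), and LCR replicate 2, the highest, was within the HCR range. No LCR sample reached the lowest HCR sample in the other 3 of these windows.

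The windows were spread over many chromosomes. They were found on all 20 autosomes, from 8 on chromosome 13 (0.164% of the windows there) to 39 on chromosome 2 (0.454%), and chromosome 17 had the largest share at 0.481% (22 windows). Joining windows at most 500 kb apart left 97 of the 380 with a neighbour of their kind. The same count was not made for other measured windows, so clustering cannot be read from it. The largest sets held 4 windows, on chromosome 17 over 1045 kb from 7254001 to 8299000 and on chromosome 10 over 734 kb from 90181001 to 90915000. A further 5 sets held 3 windows each, and the one with the largest summed LCR SD lay on chromosome 2 over 212 kb, from 117451001 to 117663000. Those intervals held 134, 48 and 26 measured windows, so the windows between were mostly not of this kind.

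Within such a set the lowest LCR sample mostly changed from window to window. On chromosome 17, LCR replicate 7 was the low sample at chr17:7254001-7255000, with 39.3% against 69.95 to 76.9% in the others and 64.1 to 73.3% in HCR. At chr17:7699001-7700000 it was replicate 2 with 28.3%, against 44.4 to 70.8% in the others and 60.5 to 69.03% in HCR. At chr17:8030001-8031000 it was replicate 6 with 1.52%, against 21.4 to 45.2% and 16.4 to 25%. At chr17:8298001-8299000 LCR samples ran from 9.68% in replicate 5 to 56.01% in replicate 1, and HCR samples from 45.4 to 54.5%. No replicate was lowest at more than 1 of these 4 windows, while LCR replicate 1 was highest at 3 of them (76.9, 70.8 and 56.01%). On chromosome 10, replicate 2 was lowest at chr10:90181001-90182000 (14.8%), replicate 3 at chr10:90312001-90313000 (32.2%) and replicate 7 at chr10:90437001-90438000 (41.1%). At the last of that set, chr10:90914001-90915000, replicates 1 and 3 were high at 65.9 and 66.05% and the others had 32.4 to 44.0%. The HCR samples of these windows had 51.4 to 60.9, 48.6 to 62.8, 65.2 to 75.3 and 42.03 to 52.4%, in this order.

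The set on chromosome 2 was the only one of the 3 in which a replicate was extreme in the same direction at each window. LCR replicate 2 was highest at all 3 windows, with 55.4% at chr2:117451001-117452000, 41.2% at chr2:117645001-117646000 and 72.4% at chr2:117662001-117663000. The other LCR samples had 7.27 to 24.1, 2.03 to 36.5 and 25.7 to 55.3%, and the HCR samples 11.03 to 20.6, 32.4 to 44.2 and 25 to 35.2%. At the middle window the level of replicate 2 was inside the HCR range and every other LCR sample except replicate 1 lay below it. These windows were read in the same libraries, so they are not independent.

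The likeness of LCR profiles was described over all pairs of the 380 windows. Pearson's r over the 8 LCR levels had a median of -0.10 over 89 pairs at over 100 kb to 1 Mb, and of 0.07 over 67915 pairs on different chromosomes. An r of 0.7 or more was found in 6.74% and 6.46% of these pairs. Few pairs lay closer: 8 at over 10 to 100 kb (median r 0.18, median absolute r 0.48), 2 at 2 to 10 kb (median r -0.17) and 1 adjacent (r = 0.47). These correlations share their libraries and are given as a description.

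Windows beside the 380 were more variable than usual in both lines. Of 130 adjacent windows with values in every sample, the median SD was 5.50 points in LCR and 5.18 in HCR, beside 2.87 and 2.92 for windows adjacent to any window. An LCR SD of 12 or more was found in 10 of the 130 (7.69%), beside 2.70% for windows adjacent to any window, and 2 of the 10 were themselves among the 380. At 2 kb the share was 1.14% (1 of 88) beside 2.86%, and at 3 kb 2.5% (2 of 80) beside 3.25%. At 5 kb it was 6.38% (6 of 94) beside 3.33%, and 4 of these 6 were themselves among the 380. The share was thus higher at 1 and 5 kb and not at 2 and 3 kb. At 2 kb the neighbours' median SDs were 5.12 in LCR and 4.69 in HCR, beside 3.74 and 3.79. At 3 kb they were 4.99 and 4.98, beside 4.07 and 4.18. Neighbours were themselves among the 380 in 1.54% at 1 kb, beside 0.2003% for any window, in none of 88 at 2 kb and 80 at 3 kb, and in 4.26% (4 of 94) at 5 kb, beside 0.312%. Each pair of the 380 was counted here from both sides, so these neighbours were 1 adjacent pair and 2 pairs at 5 kb. These shares rest on few windows and were not tested. The median r of their LCR levels with those of the chosen window was 0.09, and 4 of the 130 reached 0.7. At 5 kb the neighbours' median SDs were 3.798 in LCR and 4.29 in HCR, beside 4.18 and 4.29. Measured windows were as dense around the 380 as elsewhere, with a median of 3 within 10 kb in both. No adjacent window had values in every sample for 57.4% of the 380 and for 49.5% of all. The median level was 52.1% in the 380 windows and 35.0% in all; the part of level in these spreads was not tested. 

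The same limits were also met outside the windows considered. Of 56712 windows of chromosomes 1 to 20 that lacked a value in some sample, 932 (1.64%) met both limits over the samples that had one, a larger share than the 0.288% of windows with all values. These windows rest on fewer samples. On other sequences 11 of 4003 windows with all values met the limits, 9 of them on X and 1 on Y. The samples are given as female, and how a window on Y came to have values was not tested. Positions are in build rn7, per the submitters' processing notes. The genes and DNA sequences of the windows were not analysed here.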

How the data were processed

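RRBS libraries were made from 100 ng of genomic DNA after MspI digestion, per the labels' protocols. Per the submitters' processing notes, the authors used FastQC, Trim Galore 0.6.10, Bismark and Bowtie2 with rn7; no source used here gives the window tool, the coverage minimum or the treatment of duplicates. The deposited values are percent methylation per library in windows of 1000 bp, without counts, so depth is unknown, no counting interval was computed and the number of samples limits the precision. All sample columns were used (0 left out).

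SDs were computed from the deposited levels. The members and lists were chosen with earlier results of these data known. The count was compared over all 3003 divisions of 14 samples into 6 and 8, an exact permutation test of 1 value. Line differences were fitted with limma 3.58.1 (R 4.3.3; variance trend; log2((level + 0.01)/(1 - level + 0.01)) of levels divided by 100; Benjamini-Hochberg over 135802 windows). Both steps were run on simulated data with planted differences, as a check of the code only. Windows were named by rule: the 5 largest LCR SDs, the 2 largest per HCR level class, the 3 largest per LCR pattern, the 3 groups within 500 kb with the most windows (ties by summed LCR SD), and the nearest to each limit. Other windows named were chosen after their values were seen. Alternatives were other limits, centring, quantile normalization, other windows, other spreads, a block for replicate number and omission of each sample. Python 3.11.15, numpy 2.4.6 and pandas 2.3.3 were used. The lines share numbers 1 to 6, with nothing in the labels to say that these mark pairs.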

Additional observations from a re-analysis of the deposited data

Results flagged for a closer look

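In 14 of 71 sets of values (the named windows and the library measures, each per line) the highest or lowest sample lay far from the others relative to the range of its line; chance gives about 1 in 20. The windows were chosen for a large LCR spread and a small HCR spread, so the share is no finding. In LCR, replicate 7 was the low sample at chr1:181603001-181604000 (25%; its distance to the nearest sample was 0.863 of the range), chr13:3014001-3015000 (24.2%; 0.859), chr16:75971001-75972000 (35.3%; 0.83), chr17:7254001-7255000 (39.3%; 0.816) and chr3:158662001-158663000 (20%; 0.765). Replicate 6 was low at chr11:82574001-82575000 (2.47%; 0.541). Replicate 1 was high at chr11:65282001-65283000 (76.4%; 0.672), and replicate 2 was high at chr2:117451001-117452000 (55.4%; 0.65).

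In HCR the outlying samples were spread over replicates 2 to 6. At chr4:158511001-158512000 replicate 2 had 5.56% and the others 0% (distance 1 of the range), and at chr10:67516001-67517000, just outside the HCR limit, replicate 5 had 12.3% and the others 0% (distance 1). Replicate 4 had 17.8% at chr14:68368001-68369000 (0.803), replicate 3 had 10% at chr9:17315001-17316000 (0.783), replicate 5 had 77.7% at chr1:181603001-181604000 (0.732) and replicate 6 had 37.1% at chr8:19498001-19499000 (0.632).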

How the results depend on the processing

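The count of 380 windows depended on its limits: it was 1022 and 102 with LCR minima of 10 and 15 points, 197 and 656 with HCR maxima of 4 and 6, 909 with a scaled median absolute deviation in place of the SD, and 1312 with windows lacking values included. Leaving out each sample gave 323 to 581 windows, the highest without HCR replicate 3. The count stayed below the median over divisions in 9 other settings, with 57.1 to 91.3% of divisions as high or higher, and in all 14 sets without 1 sample, with 52.8 to 88.5%. The difference from the opposite class was -720 (exact permutation p = 0.0433) with LCR samples 1 to 6 and ranged from -533 to -8 when each sample was left out. Its p-value refers to the distance from the median difference over the divisions, not from equal counts, and was not corrected for the number of settings. Separate sets fell to 2.89% with a gap of 0.6 of the range, and windows with 1 sample apart to 5.88% at the LCR minimum of 15. Joining at 100 kb left 22 windows with a neighbour of their kind. The cause of these shifts was not tested.

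By limma 773 of the 135802 windows with all values were called, 495 to 669 when each sample was left out, with the lowest without HCR replicate 2. With the replicate block 71 were called in 12 samples, and 444 without the block in the same samples; same-numbered samples correlated at -0.03 to 0.03. Of the 380 windows, 12 were called, 4 with the replicate block and 7 without moderation of the variance.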
